A study of Mus musculus with 16 samples.

Results

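The transcription factor p53, encoded by Trp53, and 9 genes known as its targets (Mdm2, Ccng1, Phlda3, Sesn1, Sesn2, Gdf15, Zmat3, Btg2 and Tnfrsf10b) were examined in cultures labelled as juxtaglomerular (JG) cells, the cells that make renin in the arterioles of the kidney. The genes were taken by their symbols in the count table, where they are 10 of 46078 genes, and all 10 passed the filter on low counts. By their labels all cultures were mouse JG cells engineered to carry YFP driven by the renin promoter, and they received either miR-106b or a control miRNA precursor that is not mammalian. RNA was collected 48 h later and gave 16 libraries, 4 for each pairing of transfection (control or miR-106b) and kind of RNA (polyA or Ago2-IP). The paper does not say whether polyA and Ago2-IP libraries came from the same cultures. polyA RNA is the polyadenylated RNA of the whole cell, and Ago2-IP RNA was recovered with Ago2, the Argonaute protein that carries the miRNA within RISC, the RNA-induced silencing complex. The libraries were not strand-specific, but no exon base of the 10 genes is shared with another annotated gene.

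p53 is a DNA-binding protein that is kept scarce by the ubiquitin ligase Mdm2 and accumulates after DNA damage and other stress. It then binds a pair of similar short elements near its targets, and Mdm2 is itself such a target, so that the pathway limits itself. The other targets include genes that restrain the cell cycle, promote or restrain cell death and protect from oxidative and metabolic stress. miR-106b belongs to the miR-17 family, whose members share a seed, the bases that pair with sites in the 3′UTRs of mRNAs. Cdkn1a, which encodes the cell cycle inhibitor p21, is a known target of both p53 and this miRNA family.

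The seed of miR-106b-5p (bases 2 to 8, in capitals) is shared by 7 mature mouse miRNAs in RefSeq (GRCm38.p6), and miR-93-5p from the same cluster is shown beside it.
miR-106b-5p, chr5:138165787-138165807, minus strand: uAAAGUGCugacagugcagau
miR-93-5p, chr5:138165574-138165596, minus strand: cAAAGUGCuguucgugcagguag
A match to this seed was found in the annotated 3′UTR of 3 of the 10 genes, and these sites are shown with their flanks (GRCm38, GENCODE M21, match in capitals). Ccng1 and Sesn2 held the 7-base match GCACTTT, and Btg2 held CACTTTA, in which an A follows a 6-base match.
Ccng1, chr11:40749401-40749407, minus strand: catttcatgaatGCACTTTtaaggtattaa
Sesn2, chr4:132492445-132492451, minus strand: caccaccgacaaGCACTTTgcagagcaaac
Btg2, chr1:134075540-134075546, minus strand: actgtccttgttCACTTTAgaaatgacaaa
Among tested genes with an annotated 3′UTR, 15.3% of 13234 held GCACTTT and 23.0% held either match. The letters of both matches were absent from the longest annotated 3′UTR of the other 7 genes, Trp53 and Mdm2 included.

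Promoter windows from 250 bases before to 50 bases after the start site were given by RefSeq (GRCm38.p6) for 8 of the 10 genes, and not for Zmat3 and Tnfrsf10b. Some genes have more than 1 start site, which gives 10 windows. The p53 element is a palindromic motif of 10 bases, so that a search of one strand covers both. A perfect element was found in 4 of the 10 windows, against 8.4% of 32851 windows of all genes. They are shown because these promoters belong to p53 itself and to 3 of its targets, with the element in capitals.
Trp53, chr11:69580274-69580303, plus strand: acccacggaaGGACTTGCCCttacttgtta
Mdm2, chr10:117710925-117710954, minus strand: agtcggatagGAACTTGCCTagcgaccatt
Ccng1, chr11:40755452-40755481, minus strand: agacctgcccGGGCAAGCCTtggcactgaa
Sesn1, chr10:41887256-41887285, plus strand: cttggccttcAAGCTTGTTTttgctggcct
In Ccng1 the 10 bases before the perfect element were themselves an element with 1 mismatch, which makes a whole motif from -195 to -176 relative to the start site. A whole motif (a pair of elements with at most 1 mismatch each and at most 10 bases between them) was present in 2.2% of all windows. A match of letters is a description of the sequence and not a measured binding site.

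Library totals ran from 2579086 to 9459585 reads on genes, and the polyA control libraries were the deepest, with a median of 6450099 against 3645937.5 in polyA miR-106b. Renin itself (Ren1) had 0 reads in all 16 libraries, which allows up to 3 reads in each, so that this defining marker of JG cells was not detected at this depth. A list of 20 cardiac muscle genes summed to 21965 to 106070 CPM per library, against 2450 to 5369 CPM for 10 juxtaglomerular and mural genes. These levels go against the labelled cell type, the origin of the RNA is uncertain and was not tested, and every value below is a value of these libraries as labelled. Among the polyA miR-106b libraries replicate 1 was the highest of the 4 for Phlda3, Zmat3 and Sesn1, although by Dixon's test no library of a polyA group was an outlier for any of the 10 genes. Calls of the 10 genes that change without it are given both ways. Values are given as normalised CPM, the counts (CPM) scaled to a common library size by the TMM method within each kind of RNA. Changes are given as log2 fold changes with a standard error (SE). This SE was derived from the test, as the absolute log2 fold change divided by the square root of its F statistic. A change was called where the adjusted p of edgeR's quasi-likelihood F test, over 14897 genes, was under 0.05.

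In polyA RNA, 6 of the 10 genes changed with miR-106b. Trp53, Mdm2 and the death receptor gene Tnfrsf10b fell, and Sesn1, Gdf15 and Btg2 rose. Over all genes tested 21.5% fell and 19.0% rose, so that 3 of 10 in each direction was near the background. For the falls this background depended on single control libraries. The share of all genes tested that fell was 12.3% without polyA control replicate 1, 11% without replicate 2 and 11.5% without replicate 3, and rises were 59.9%, 60.3% and 60.2% of all genes called. Trp53, Mdm2 and Tnfrsf10b were called lower in each of these fits. The median log2 fold change of the 10 genes was -0.31, against -0.05 for all genes tested. Rises made up 47% of all genes called, and 61.4% in 1 fit of all 16 libraries, in which none of the 10 genes changed its sign. The polyA groups did not overlap for 5 of the 10 genes, where 38.3% of all genes tested had groups that did not overlap. With scaling by library size alone they did not overlap for 6, and the share of all genes was not taken at that scaling.

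**Figure D1:**
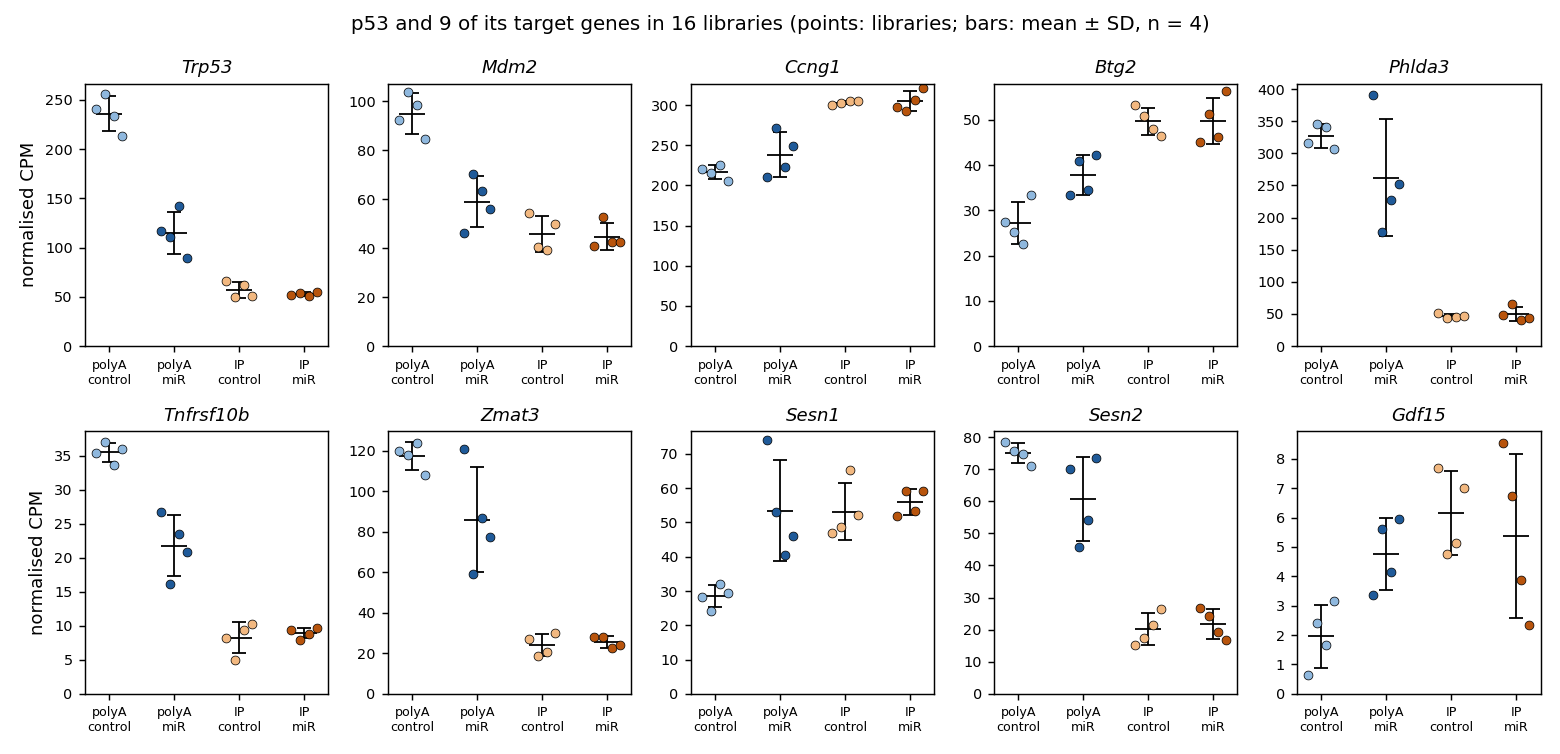
Normalised CPM (vertical axes, starting at 0) of Trp53 and 9 p53 targets in 16 libraries, 4 for each kind of RNA and transfection. Points are libraries, and bars are the mean ± SD of 4. The polyA groups are apart for Trp53 (213 to 256 against 89.8 to 142), while the Ago2-IP groups overlap for all 10 genes.

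Trp53 (ENSMUSG00000059552, chr11:69580359-69591873, plus strand, GRCm38) was at 241, 256, 234 and 213 normalised CPM in polyA control replicates 1 to 4. With miR-106b it was at 117, 111, 142 and 89.8. Every miR-106b library was below every control library. The mean fell from 236 ± 17.9 to 115 ± 21.4 (SD, n = 4 each). The log2 fold change was -1.03 (SE 0.134, adjusted p = 0.000683, edgeR). The exact permutation test over 70 relabellings gave p = 0.0286, two-sided, which is the smallest p that 4 against 4 libraries allow.

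Mdm2 (ENSMUSG00000020184, chr10:117688888-117710758, minus strand) encodes the ligase that marks p53 for degradation. Its level was 92.5, 104, 98.7 and 84.7 normalised CPM in the polyA control libraries and 46.1, 70.4, 63.5 and 56 in the polyA miR-106b libraries. The groups did not overlap, and the lowest library was miR-106b replicate 1. The mean went from 95 ± 8.3 to 59 ± 10.4 (SD, n = 4), and the log2 fold change was -0.69 (SE 0.135, adjusted p = 0.0018, edgeR). Trp53 and the gene of its inhibitor were lower in the same cultures.

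Of the targets that act on the cell cycle and growth, Ccng1 (ENSMUSG00000020326, chr11:40748552-40755311, minus strand) encodes cyclin G1, and Btg2 (ENSMUSG00000020423, chr1:134075170-134079120, minus strand) encodes an antiproliferative protein that promotes mRNA deadenylation. Both carry a seed match of miR-106b-5p. Ccng1 was at 221, 215, 225 and 205 normalised CPM in polyA control and at 210, 272, 223 and 249 in polyA miR-106b. Replicates 2 and 4 of miR-106b were above all controls and replicates 1 and 3 within their range. The log2 fold change was 0.14 (SE 0.109, adjusted p = 0.328, edgeR). Without polyA miR-106b replicate 1 it was 0.28, with an adjusted p of 0.0372.

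Btg2 rose. Its polyA control libraries were at 27.5, 25.1, 22.6 and 33.4 normalised CPM and its miR-106b libraries at 33.4, 40.9, 34.5 and 42.3. The groups touched at control replicate 4 and miR-106b replicate 1. The means were 27.2 ± 4.62 and 37.8 ± 4.49 (SD, n = 4). The log2 fold change was 0.47 (SE 0.147, adjusted p = 0.0207, edgeR), and the exact permutation test gave p = 0.0571. The call was lost without polyA miR-106b replicate 2 (adjusted p = 0.0568, edgeR) or replicate 4 (adjusted p = 0.0579, edgeR).

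Of the targets that act on cell death and survival, Phlda3 (ENSMUSG00000041801, chr1:135766119-135769136, plus strand) encodes an inhibitor of Akt, Tnfrsf10b (ENSMUSG00000022074, chr14:69767472-69784403, plus strand) encodes the receptor of the death ligand TRAIL, and Zmat3 (ENSMUSG00000027663, chr3:32334792-32366014, minus strand) encodes an RNA-binding zinc finger protein. Tnfrsf10b was at 35.4, 37, 33.7 and 36 normalised CPM in polyA control and at 26.7, 16.1, 23.5 and 20.8 in polyA miR-106b. All 4 miR-106b libraries were below all controls. The mean fell from 35.6 ± 1.38 to 21.7 ± 4.49 (SD, n = 4), and the log2 fold change was -0.70 (SE 0.15, adjusted p = 0.00284, edgeR).

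Phlda3 was at 316, 346, 341 and 307 normalised CPM in polyA control and at 391, 177, 228 and 253 in polyA miR-106b. Replicate 1 of miR-106b was above every control and the other 3 below every control. The log2 fold change was -0.32 (SE 0.192, adjusted p = 0.207, edgeR), and -0.50 with an adjusted p of 0.00351 without that library. Zmat3 was arranged in a similar way. Its control libraries were at 120, 118, 124 and 108 and its miR-106b libraries at 121, 59.1, 86.7 and 77.5 normalised CPM, so that replicate 1 lay among the controls and the other 3 below them. The log2 fold change of Zmat3 was -0.44 (SE 0.173, adjusted p = 0.0567, edgeR), and -0.58 with an adjusted p of 0.00201 without replicate 1. Without this library 9 of the 10 genes changed in polyA RNA, against 6 with it, and the share of all genes tested that were called also went up, from 40.5% to 45%.

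The sestrins Sesn1 and Sesn2 restrain mTORC1 signalling and support the defence against oxidants, and Sesn2 is also a target of the stress factor ATF4. Sesn1 (ENSMUSG00000038332, chr10:41810574-41908424, plus strand) was at 28.3, 24.3, 32.1 and 29.4 normalised CPM in polyA control and at 74.1, 53, 40.6 and 46 in polyA miR-106b. All miR-106b libraries were above all controls, with replicate 1 the highest. The mean rose from 28.5 ± 3.22 to 53.4 ± 14.7 (SD, n = 4), and the log2 fold change was 0.92 (SE 0.176, adjusted p = 0.0016, edgeR). Sesn2 (ENSMUSG00000028893, chr4:132492032-132510501, minus strand) was at 78.6, 75.6, 74.8 and 70.9 in the controls and at 69.9, 45.8, 54.1 and 73.4 with miR-106b, and these groups overlapped. With scaling by library size alone they did not, and the exact permutation test gave p = 0.0286 instead of 0.0571. Its log2 fold change was -0.31 (SE 0.142, adjusted p = 0.105, edgeR), and -0.40 with an adjusted p of 0.0478 without polyA miR-106b replicate 4.

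Gdf15 (ENSMUSG00000038508, chr8:70629393-70632456, minus strand) encodes a secreted stress cytokine. It was read rarely, with 4, 23, 11 and 18 reads in the polyA control and 15, 21, 15 and 16 reads in the polyA miR-106b libraries. On the scale of normalised CPM these were 0.633, 2.41, 1.65 and 3.15 against 3.36, 5.62, 4.14 and 5.94. The groups did not overlap, although control replicate 4 was close to miR-106b replicate 1. The log2 fold change was 1.24 (SE 0.4, adjusted p = 0.0253, edgeR). The call was lost without polyA control replicate 3 (adjusted p = 0.0533, edgeR), miR-106b replicate 2 (0.0678) or miR-106b replicate 4 (0.0684).

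Markers of other cell types also moved in polyA RNA. Of a list of 20 cardiac muscle genes 19 were tested and all 19 rose in polyA RNA with miR-106b, with a median log2 fold change of 1.23, where 19.0% of all genes tested rose and the median was -0.05. Their summed level, in CPM scaled to library size, ranged from 21965 to 31239 in polyA control, from 42884 to 74240 in polyA miR-106b and from 96507 to 106070 in the 8 Ago2-IP libraries. Within polyA miR-106b it was lowest, and nearest to the controls, in replicate 1. In that library Phlda3, Zmat3, Tnfrsf10b and Sesn1 were highest, Mdm2, Ccng1, Btg2 and Gdf15 lowest, and Trp53 and Sesn2 neither. For Mdm2 and Sesn1 it was the library farthest from the controls. The share of all genes tested that were highest or lowest in replicate 1 was not counted, so nothing is drawn from this order.
Macrophage and leukocyte markers rose for 9 of 10 genes (summed CPM 222 to 314 in polyA control, 424 to 677 in polyA miR-106b and 907 to 984 in Ago2-IP), and endothelial markers for 10 of 10 (455 to 666, 861 to 1568 and 1958 to 2201). Of the juxtaglomerular and mural markers 5 of 8 tested genes rose and 1 fell (2450 to 2677, 3459 to 4364 and 4817 to 5369), and in these 4 lists Ren1 alone was at 0 in every library. The part of these transcripts in the changes of the p53 genes was not tested. In such bulk RNA, fewer cells of a type and less RNA per cell cannot be told apart.

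**Figure D2:**
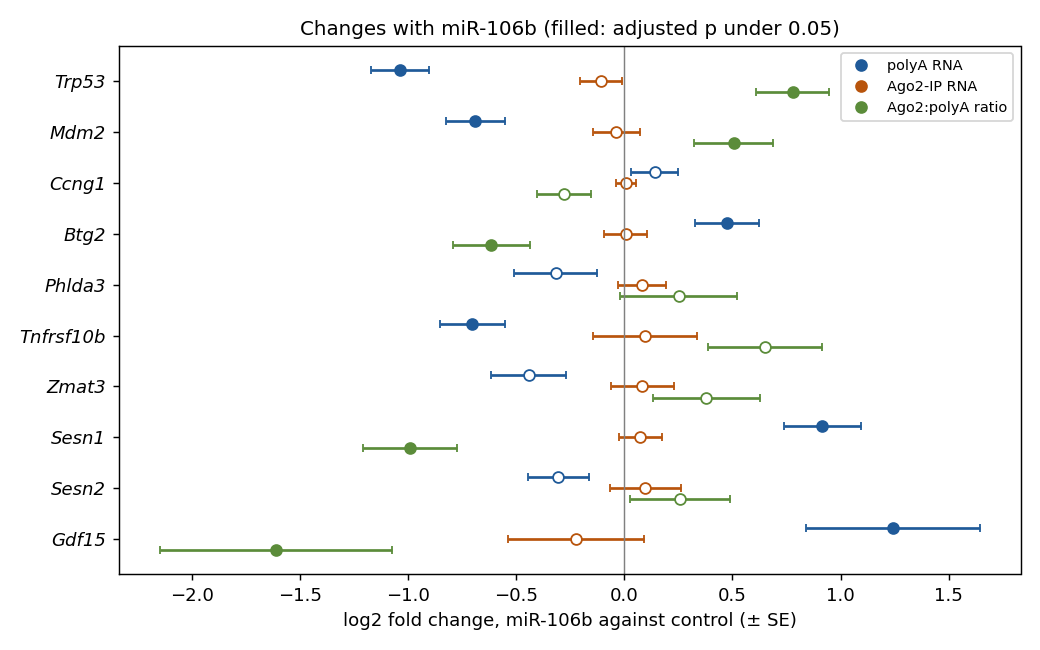
Log2 fold change ± SE (horizontal axis) with miR-106b of Trp53 and 9 p53 targets in polyA RNA (blue), in Ago2-IP RNA (orange) and for the Ago2:polyA ratio (green), where filled points have an adjusted p under 0.05. In polyA RNA 3 genes are called lower and 3 higher, and in Ago2-IP RNA none of the 10 is called, with fold changes from -0.22 to 0.10 on the log2 scale.

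In Ago2-IP RNA none of the 10 genes was called with miR-106b, as was the case for 0% of all genes tested in edgeR, where 826 genes had an unadjusted p under 0.05. DESeq2's Wald test called 2 genes and the likelihood ratio test of edgeR with robust dispersion called 18, none of them among the 10. Trp53 was at 65.6, 49.3, 62 and 51 normalised CPM in the Ago2-IP control libraries and at 52, 53.5, 50.4 and 54.8 with miR-106b. The groups overlapped, and the log2 fold change was -0.11 (SE 0.0979, adjusted p = 0.937, edgeR). Mdm2 was at 54.5, 40.6, 39.1 and 49.7 in Ago2-IP control and at 40.8, 52.7, 42.7 and 42.6 with miR-106b, again overlapping.

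The genes with a seed match also had overlapping Ago2-IP groups. Ccng1 was at 300, 303, 305 and 305 normalised CPM in Ago2-IP control and at 298, 293, 307 and 321 with miR-106b. Its log2 fold change was 0.01 (SE 0.0468, adjusted p = 0.996, edgeR). Btg2 was at 53.3, 50.9, 47.9 and 46.4 against 45.1, 51.2, 46.2 and 56.3, and its log2 fold change was also 0.01 (SE 0.0992). Sesn2 was at 15.1, 17.4, 21.3 and 26.5 against 26.8, 24.3, 19.1 and 16.9, with a log2 fold change of 0.10 (SE 0.164). Among the other genes the Ago2-IP means ± SD (n = 4) of control and miR-106b were 47 ± 2.9 and 49.7 ± 10.9 for Phlda3, 53.2 ± 8.29 and 55.9 ± 3.77 for Sesn1, and 6.15 ± 1.43 and 5.37 ± 2.79 for Gdf15. For Zmat3 they were 24.1 ± 5.51 and 25.6 ± 2.79, and for Tnfrsf10b 8.26 ± 2.3 and 8.89 ± 0.761.

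The study used the Ago2:polyA ratio to ask which mRNAs move into RISC with the miRNA. It counted mRNAs whose ratio rose at least 2-fold, while a call here rests on the adjusted p alone. The change of this ratio with miR-106b was tested as an interaction in 1 fit of all 16 libraries, scaled together. Since the scaling differs from that of the separate fits, it does not equal the difference of their 2 changes. With TMM run within each RNA kind the change of the ratio was 0.92 for Trp53, 0.65 for Mdm2 and -0.84 for Sesn1 (log2). The comparison shares the polyA libraries with the one above, and the values are given side by side. The ratio rose for Trp53 by 0.78 (log2, SE 0.169, adjusted p = 0.00118, edgeR), beside -1.03 in polyA and -0.11 in Ago2-IP RNA. It also rose for Mdm2, by 0.50 (SE 0.184, adjusted p = 0.0439, edgeR), beside -0.69 and -0.04. As folds the rises were 1.72 for Trp53 and 1.42 for Mdm2, both below the 2-fold rise that the study counted. Neither gene held a seed match, and 7.61% of all genes tested rose in this comparison (1134 of 14897). With TMM run within each RNA kind 1938 of the 14897 genes rose.

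The ratio fell for 3 of the 10 genes, where 19.7% of all genes tested fell. Sesn1 changed by -0.99 (log2, SE 0.216, adjusted p = 0.00127, edgeR), Gdf15 by -1.61 (SE 0.538, adjusted p = 0.0281, edgeR) and Btg2 by -0.62 (SE 0.179, adjusted p = 0.0122, edgeR). Btg2 is the only gene with a seed match among the 5 called. The other genes with a match were at -0.28 (Ccng1, SE 0.123, adjusted p = 0.0967, edgeR) and 0.26 (Sesn2, SE 0.233, adjusted p = 0.452, edgeR). Tnfrsf10b was at 0.65 (SE 0.265, adjusted p = 0.0706, edgeR), Zmat3 at 0.38 and Phlda3 at 0.25, none of them called. Without polyA miR-106b replicate 1 these were called, Tnfrsf10b at 0.78 (adjusted p = 0.0238, edgeR), Zmat3 at 0.60 (0.0176) and Phlda3 at 0.52 (0.0175), and so was Ccng1 at -0.33 (0.0245). Tnfrsf10b was also called without Ago2-IP control replicate 4 (adjusted p = 0.0426, edgeR).

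The calls of the ratio leaned on single libraries for Mdm2, Gdf15 and Btg2. Mdm2 lost its call in 10 of 16 fits with 1 library left out (polyA control 1, 2 or 3, polyA miR-106b 1 or 4, Ago2-IP control 2 or 3, and Ago2-IP miR-106b 2, 3 or 4), with an adjusted p from 0.0559 to 0.116. Gdf15 lost it in 8 (polyA control 1 or 3, polyA miR-106b 2 or 4, Ago2-IP control 1 or 4, and Ago2-IP miR-106b 3 or 4), with 0.0508 to 0.0749, and Btg2 without polyA miR-106b 2 (0.0628). Without polyA miR-106b replicate 1, in contrast, 8 of the 10 genes were called, and 31.1% of all genes tested against 27.3% with it. Scaling changed the split of all called genes between directions, with 27.9% higher as given and 45% higher when TMM was run within each RNA kind, but none of the 10 genes changed its sign in any of these fits. Btg2 lost its call with TMM within each RNA kind (-0.47, adjusted p = 0.0505, edgeR), with scaling by library size alone (0.0578) and with no filter on low counts (0.104). Gdf15 lost its call with scaling by library size alone (0.0508), and Mdm2 with a replicate block (0.0551). Tnfrsf10b gained a call with both scalings, with no filter and with at least 10 counts in every library (0.0247 to 0.0413), and Zmat3 with no filter (0.038).

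Trp53 and its targets were unevenly represented in Ago2-IP against polyA RNA. In the control transfection all 10 genes differed, 4 of them higher in Ago2-IP RNA (against 35.1% of all genes tested) and 6 lower (against 34.6%). Those higher were Gdf15 (log2 fold change 1.93, SE 0.377), Sesn1 (1.21, SE 0.153), Btg2 (1.18, SE 0.126) and Ccng1 (0.79, SE 0.0872). Those lower were Phlda3 (-2.49, SE 0.195), Zmat3 (-1.98, SE 0.173), Tnfrsf10b (-1.79, SE 0.178), Trp53 (-1.75, SE 0.119), Sesn2 (-1.58, SE 0.162) and Mdm2 (-0.74, SE 0.127), and the highest adjusted p of the 10 was 7.66e-05 (edgeR, for Gdf15). With scaling by library size alone the median of all genes in this comparison was -0.35 on the log2 scale instead of -0.03, rises were 37.9% of all genes called instead of 50.3%, and the 10 genes kept their signs.

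After miR-106b transfection 7 of the 10 genes differed between the kinds of RNA. Ccng1 (0.51) and Btg2 (0.56) were higher in Ago2-IP RNA, where 21.9% of all genes tested were. Phlda3 (-2.24), Zmat3 (-1.60), Sesn2 (-1.33), Tnfrsf10b (-1.14) and Trp53 (-0.97) were lower, where 24.5% were. Mdm2 was at -0.24 (adjusted p = 0.15, edgeR), Sesn1 at 0.22 (adjusted p = 0.258, edgeR) and Gdf15 at 0.32 (adjusted p = 0.512, edgeR). Without polyA miR-106b replicate 1 Mdm2 (-0.34, adjusted p = 0.0315, edgeR) and Sesn1 (0.43, adjusted p = 0.0108, edgeR) were called as well. With scaling by library size alone rises were 34% of all genes called instead of 47.3%, and Mdm2 was called as well (-0.39, adjusted p = 0.0224, edgeR).

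**Figure D3:**
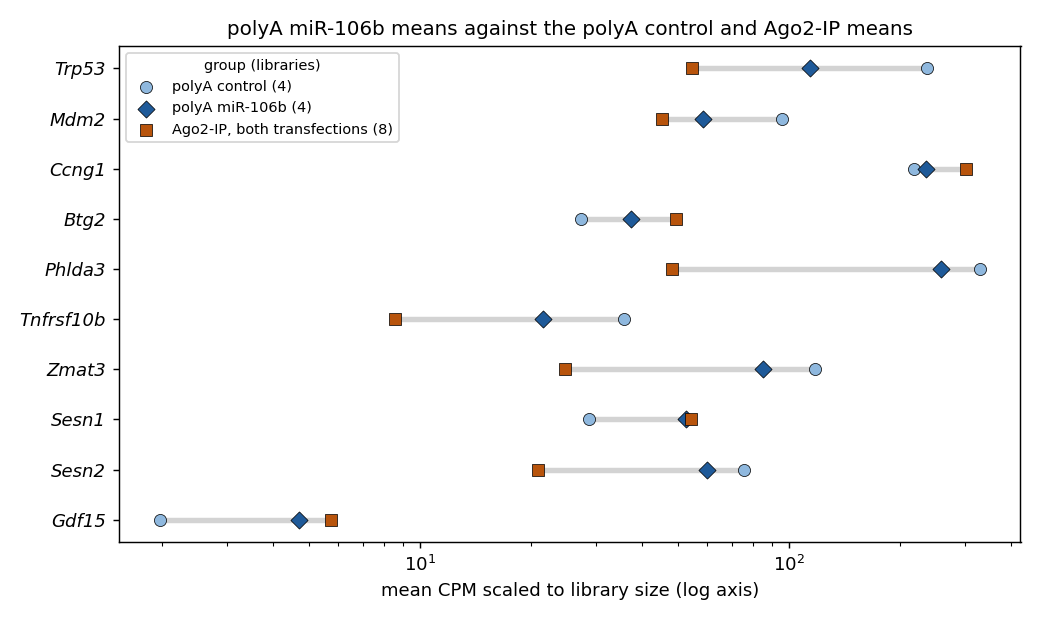
Mean CPM scaled to library size (log axis) of each gene in polyA control (circles, 4 libraries), polyA miR-106b (diamonds, 4) and Ago2-IP RNA of both transfections (squares, 8). Trp53 is at 237, 114 and 54.7, and Sesn1 at 28.7, 52.7 and 54.4, in that order.

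Set side by side on the scale of CPM by library size, Trp53 was at 237 in polyA control, 114 in polyA miR-106b and 54.7 in the Ago2-IP libraries together. Phlda3 was at 329, 259 and 48.2, and Btg2 at 27.3, 37.3 and 49.6. Both comparisons use the same polyA control libraries, so no count over the genes is drawn from their order. The cardiac, macrophage and endothelial sums given above were lowest in polyA control and highest in Ago2-IP RNA, as Btg2 was, while Trp53 and Phlda3 ran the other way, and their part in these levels was not tested.

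Levels of different genes were compared per exon length, as RPKM, the CPM scaled to library size divided by the exon length in kilobases. In polyA control Phlda3 was the most abundant of the 10 with 211 ± 12.9 RPKM (SD, n = 4), followed by Ccng1 (62 ± 2.53) and Trp53 (58.7 ± 4.51), whose ranges over libraries overlapped. Sesn2 (21.7) and Mdm2 (18.8) overlapped as well, as did Zmat3 (10.3) with Btg2 (9.96) and Sesn1 (7.21) with Tnfrsf10b (6.57), and Gdf15 was last with 1.07 ± 0.584. In polyA miR-106b Phlda3 (166 ± 56.9), Ccng1 (67.1 ± 7.13) and Trp53 (28.3 ± 6.29) kept the first 3 places and no longer overlapped. Each of Sesn2 (17.3), Btg2 (13.6), Sesn1 (13.2), Mdm2 (11.5) and Zmat3 (7.46) overlapped with its neighbour in this order, and Tnfrsf10b (3.95) overlapped with Gdf15 (2.54).

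The order was different in Ago2-IP RNA. Ccng1 was first, with 86.2 ± 0.716 RPKM for the control and 86.5 ± 3.61 for miR-106b (SD, n = 4). Phlda3 followed with 30.1 ± 1.87 and 31.7 ± 6.83, and Btg2 with 18.1 ± 1.18 and 18.1 ± 1.84. Trp53 (14.1 and 13) overlapped with Sesn1 (13.3 and 14) in both groups. Mdm2 (9.02 and 8.76), Sesn2 (5.76 and 6.24), Gdf15 (3.31 and 2.89), Zmat3 (2.1 and 2.24) and Tnfrsf10b (1.51 and 1.63) came after them, and among these Gdf15 overlapped with Zmat3 in both groups and Zmat3 with Tnfrsf10b in the control only. With miR-106b the range of Gdf15 (1.26 to 4.61 RPKM) also covered that of Tnfrsf10b (1.44 to 1.76), so that the place of Gdf15 among the last 3 was not resolved.

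**Figure D4:**
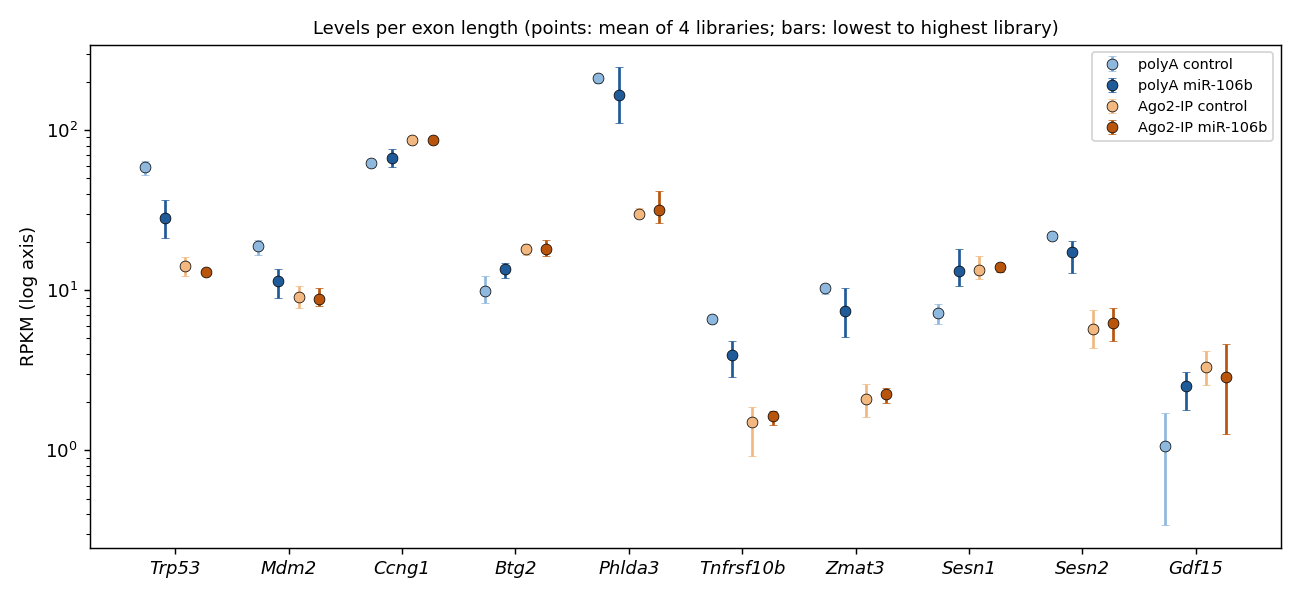
RPKM (log axis) of the 10 genes in the 4 groups. Points are means of 4 libraries, and bars run from the lowest to the highest library. Phlda3 leads in polyA control (211) and Ccng1 in Ago2-IP control (86.2), while Gdf15 and Tnfrsf10b are among the lowest in each group.

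The genes whose log2 CPM followed that of Trp53 most closely over the 16 libraries were Txn1, Klf16, Rps6ka4 and Rpsa (Pearson's r = 0.991 each) and Tuba1b (r = 0.990), out of 10956 genes whose mean reached 5 CPM. Txn1 encodes thioredoxin, Rpsa a ribosomal protein and Tuba1b an alpha tubulin, and the reads of the last 2 may be split with near-identical copies. Among the targets r with Trp53 was 0.94 for Tnfrsf10b, 0.91 for Zmat3, 0.89 for Phlda3, 0.86 for Mdm2 and 0.84 for Sesn2. It was -0.86 for Sesn1, -0.94 for Ccng1 and -0.95 for Btg2. The 16 points include both kinds of RNA, whose difference all these genes share, so that these values are descriptions.

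Among 30 further p53 targets, all of which were tested, 10 fell and 3 rose in polyA RNA with miR-106b, beside 21.5% and 19.0% of all genes tested. The median log2 fold change was -0.17. With 1 library left out, the 13 calls of this list became 9 to 15. The share of all genes tested that were called ranged from 27.7% to 45% in these fits. Cdkn1a fell from 205 ± 17 to 135 ± 13 normalised CPM (SD, n = 4), and the log2 fold change was -0.60 (SE 0.11, adjusted p = 0.00128, edgeR). Bax, which opens mitochondria in apoptosis, fell from 109 ± 13.7 to 79 ± 8.4 (-0.47, adjusted p = 0.00973, edgeR), and lost its call without polyA control 1 (0.0876), 2 (0.0952) or 3 (0.0833). In the ratio 5 of the 30 were called higher and 3 lower, beside 7.61% and 19.7% of all genes tested. These shares moved with the scaling. With TMM within each RNA kind 1938 of 14897 genes were higher, against 1134 as given, and 15.9% were lower. The 30 genes were not counted in that fit. Cdkn1a was among the higher, by 0.44 on the log2 scale (adjusted p = 0.0137, edgeR), beside -0.60 in polyA RNA and -0.01 in Ago2-IP RNA (adjusted p = 0.996, edgeR).

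The other named falls in polyA RNA were Gtse1 (log2 fold change -1.72, adjusted p = 0.00234, edgeR), whose protein binds p53 in G2 phase, the polo-like kinase gene Plk2 (-1.13), the death receptor gene Eda2r (-0.98), Pidd1 (-0.86), whose protein forms a caspase-activating complex, and the DNA polymerase gene Polk (-0.81). Polk lost its call without polyA control 2 (0.0591) or 3 (0.0534) and in 1 fit of all libraries (0.0577). The rises were Perp, a desmosome and apoptosis gene, with 1.12 (adjusted p = 0.000955, edgeR), the sugar reductase gene Dcxr with 0.61 (0.0228) and Tigar, which lowers glycolysis, with 0.60 (0.00709). Dcxr reached an adjusted p of 0.05 without polyA miR-106b 4.

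A whole p53 motif was also present in the promoter window of Cdkn1a (GRCm38.p6, both elements in capitals, 1 mismatch in all, from -51 to -32 relative to the start site), which is shown as the promoter of the best-known p53 target.
Cdkn1a, chr17:29090928-29090947, plus strand: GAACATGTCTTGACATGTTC

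Of 18 tested regulators and relatives of p53, 10 fell and 1 rose in polyA RNA, beside 21.5% and 19.0% of all genes tested, and the median log2 fold change was -0.41. The damage kinase genes Atm (17 ± 2.02 to 7.06 ± 1.52 normalised CPM, SD, n = 4) and Atr (7.24 ± 1 to 3.83 ± 1.52) fell by 1.25 and 0.93 on the log2 scale. Mdm4, which encodes the partner of Mdm2 in holding p53 down, changed by -0.74 (SE 0.157, adjusted p = 0.00282, edgeR). The deacetylase gene Sirt1 (-0.63, adjusted p = 0.0398, edgeR) and the ribosomal protein gene Rpl5 (-0.66, adjusted p = 0.00146, edgeR), whose reads may be split with processed copies, fell too. Hipk2, a kinase gene whose product phosphorylates p53, rose by 0.68 (adjusted p = 0.00259, edgeR).

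The number of these 18 genes called, 11 in both directions together, was 4 without polyA control 1, 4 without control 2 and 6 without control 3. Calls also became fewer over all genes tested, from 40.5% to 30.7%, 27.7% and 28.8% in the same fits. Sirt1 lost its call without any 1 of polyA control 1, 2 or 3 or miR-106b 2, 3 or 4 (adjusted p up to 0.22, edgeR), with DESeq2 size factors (0.0625), in DESeq2's Wald test (0.0694) and in 1 fit of all libraries (0.0844), and Atr without polyA control 1 (0.0743), control 2 (0.0807) or miR-106b 1 (0.0613).

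**Figure D5:**
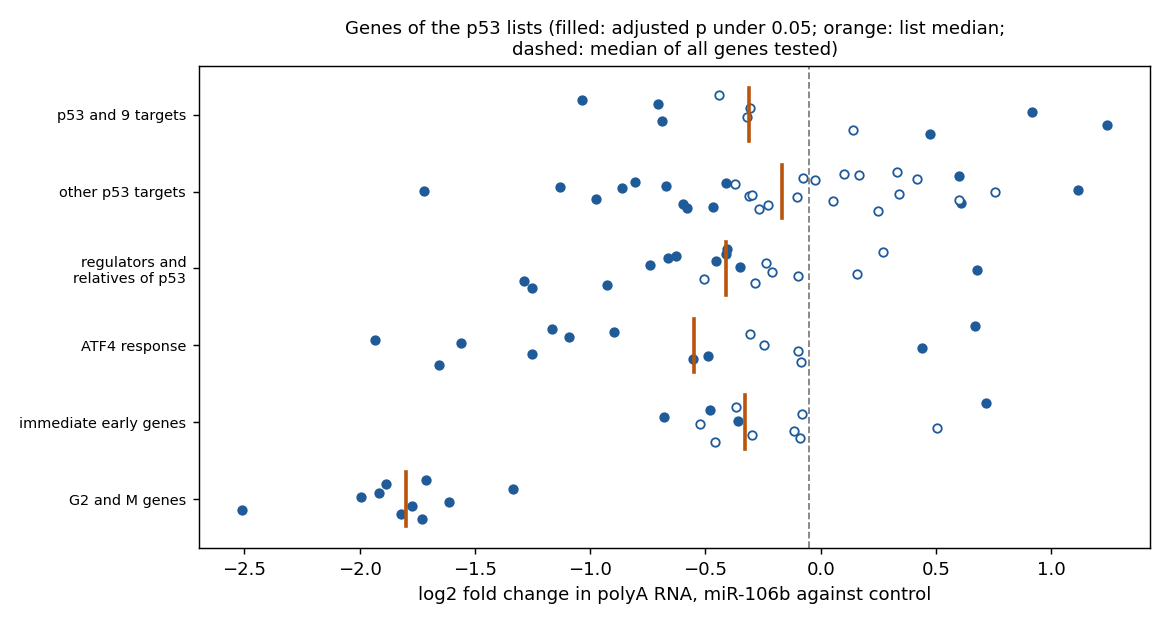
Log2 fold change in polyA RNA, miR-106b against control (horizontal axis), of each tested gene of 6 lists. Filled points have an adjusted p under 0.05, orange bars are list medians (-0.31 for p53 and 9 targets, -0.17 for other p53 targets and -1.80 for the G2 and M genes), and the dashed line is the median of all genes tested (-0.05).

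Programmes that meet the p53 pathway were read from 3 further lists. All 10 genes of a list of G2 and M phase genes, which p53 lowers through p21 and the DREAM complex, fell in polyA RNA, where 21.5% of all genes tested fell, with a median log2 fold change of -1.80. Cdk1 went from 47.8 ± 6.66 to 12.5 ± 7.22 normalised CPM (SD, n = 4), and Birc5, encoding survivin, from 45.6 ± 6.16 to 12.9 ± 8.45. Kif23 (-1.89, adjusted p = 0.0142, edgeR) lost its call without polyA control 1 (0.053), 2 (0.0612) or 3 (0.0514), and with no filter on low counts (0.0935). These genes fell together with Cdkn1a and Trp53.

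Of 15 genes of the ATF4 response, the programme of amino acid and endoplasmic reticulum stress to which Sesn2 and Gdf15 also belong, 9 fell and 2 rose, beside 21.5% and 19.0% of all genes tested, with a median log2 fold change of -0.55 against -0.05 for all genes. The 3 largest changes were in genes of amino acid synthesis, namely Psat1 (-1.93, adjusted p = 0.00464, edgeR), Asns (-1.65, adjusted p = 0.000683, edgeR) and Phgdh (-1.56, adjusted p = 0.00114, edgeR). Of 12 immediate early genes, which share with Btg2 a fast response to stimuli, 3 fell and 1 rose, so that 4 of 12 were called beside 40.5% of all genes tested. Without polyA control 2 or 3 the count was 2, beside 27.7% and 28.8%. Zfp36 rose by 0.72 on the log2 scale (adjusted p = 0.00107, edgeR), and Ier3 (-0.68) and Junb (-0.48) fell. Junb lost its call without polyA control 2 or 3 (adjusted p = 0.068 in both, edgeR).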

How the data were processed

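Per the labels and the methods, the authors removed ribosomal RNA reads, aligned single-end reads of 50 bases to the GRCm38 mouse transcriptome with TopHat2 and counted them on genes with HTSeq. The deposited values were whole-number counts per gene and library, without normalization, for 46078 genes, of which 197 have no symbol. TopHat2 is version 2.0.10 in the submitters' processing notes.

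The members and the gene lists were chosen with earlier results of these data known. Groups came from the labels. Genes with at least 1 CPM in at least 3 of 4 replicates of a group were kept (14897). The analysis used edgeR 4.0.16 in R 4.3.3 (TMM scaling, two-sided quasi-likelihood F test, robust dispersion, Benjamini-Hochberg over all genes tested), with DESeq2 1.42.0 as an alternative, and in Python 3.11.15 with pandas 2.3.3 and scipy 1.17.1. polyA and Ago2-IP libraries were fitted separately, and all 16 libraries in 1 fit for the ratio and for Ago2-IP against polyA RNA. Exact permutation tests used log2 CPM per library and were not adjusted. p-values measure the spread between replicate libraries of the same cells. The fit of all 16 libraries treated each library as independent. The scripts were checked on simulated counts.

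Genes named from the lists were the 5 largest rises and falls in polyA RNA (p53 targets, regulators) or the 3 largest changes (other lists) whose adjusted p was under 0.05 and whose mean reached 5 CPM, and always Cdkn1a, Bax and Mdm4. Deviations of same-numbered replicates across groups gave 24 correlations from -0.486 to 0.38. Pairs with different numbers were not compared, so these values cannot tell whether replicates were paired. The methods name no pairing, and the replicate number was a block only in an alternative. Alternatives were other scalings, filters and tests, 1 fit of all libraries, and leaving out each library. Reads are not independent molecules, so limits from a count of 0 cover counting error only.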

Additional observations from a re-analysis of the deposited data

Results flagged for a closer look

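In 1 of 40 sets of 4 libraries (10 genes in 4 groups) a single library stood apart from the other 3, where chance flags about 1 in 20. This was Mdm2 in Ago2-IP miR-106b replicate 2, at 52.7 normalised CPM beside 40.8 to 42.7 in the other 3 libraries.

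For 5 of the 10 genes the change with miR-106b differed between the kinds of RNA by the interaction test (edgeR), which called 27.3% of all genes tested. The interaction, positive where the Ago2:polyA ratio rose with miR-106b, in 1 fit with all 16 libraries scaled together, was on the log2 scale 0.78 for Trp53 (adjusted p = 0.00118), 0.50 for Mdm2 (0.0439), -0.99 for Sesn1 (0.00127), -1.61 for Gdf15 (0.0281) and -0.62 for Btg2 (0.0122).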

How the results depend on the processing

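Among the 10 genes, no change in polyA RNA, in the ratio or between the kinds of RNA turned its direction under any alternative run. Calls were lost or gained in 5 and 11 of 159 values in polyA RNA and in 24 and 10 of 239 values of the ratio. Zmat3 in polyA RNA gained a call with scaling by library size only (adjusted p = 0.0483, edgeR), no low-count filter (0.0171), a minimum of 10 counts per library (0.0457) and the likelihood ratio test (0.00362), and Phlda3 with the likelihood ratio test (0.0187). Fitting all 16 libraries at once moved the share of rises among all polyA calls from 47% to 61.4% and called Ccng1 (0.0164). The calls of Btg2, Gdf15, Mdm2, Tnfrsf10b and Zmat3 in the ratio that changed with a setting stand beside them above. The cause was not tested. With a replicate block, 7 of 10 genes were called in polyA RNA and 4 in the ratio (37% and 26.2% of all genes tested), where Mdm2 lost its call (0.0551), and Zmat3 gained one in polyA RNA (0.0296).

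In Ago2-IP RNA the number of genes called over the whole table was 0, and it was 19 without a filter, 2 with at least 10 counts, 2 with DESeq2's Wald test, 18 with the likelihood ratio test, 1 with the replicate block and 0 to 40 with 1 library left out. Log2 fold changes near 0 changed sign there, for Ccng1 to -0.0083 without a filter and -0.0133 in 1 fit of all libraries, and for Btg2 to -0.00803 and -0.015. With 1 library left out they ranged from -0.13 to 0.0499 for Mdm2, from -0.0184 to 0.0251 for Ccng1, from -0.0833 to 0.17 for Phlda3, from -0.0162 to 0.27 for Sesn2, from -0.51 to 0.0355 for Gdf15, from -0.0277 to 0.22 for Zmat3, from -0.0591 to 0.0482 for Btg2 and from -0.0808 to 0.23 for Tnfrsf10b. The number of the 10 genes called in the ratio ranged from 3 to 8 with 1 library left out, and the share of all genes tested from 22.4% to 32.3%.

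Depth limits Gdf15 most, whose polyA libraries held 4 to 23 reads and which could not be tested with a minimum of 10 counts per library.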
